A study of Mus musculus with 8 samples.

Results

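The histone genes of the mouse were followed in bulk RNA sequencing of the aorta of male Marfan mice at 2 ages. Members were the symbols of the deposited count tables that match the naming patterns of replication-dependent histones (H1f1 to H1f5, H2ac, H2bc, H3c and H4c followed by a number, or the older Hist1h to Hist4h) and of variant histones (the remaining H1f genes, H2aj, H2ax, H2az1, H2az2 and the H3f genes). The patterns took 80 of 25526 listed genes, 67 replication-dependent and 13 variant by name. The 8 libraries came from mice with the genotype Fbn1C1041G/+, a fibrillin-1 change used as a model of Marfan syndrome: 4 were taken at 12 weeks, when aneurysms grow, and 4 at 2 years, when their growth has stopped. Both ages carry the allele and no group without it was analysed here, so values at 2 years differ from those at 12 weeks in age together with the state of the aneurysm. Library identifiers in the titles also differ in form between the ages. Any difference in collection or preparation that coincides with age cannot be told apart from it. The labels do not name the segment of the aorta or the animal behind a library, and the p-values measure the spread between these 4 libraries per age.

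Histones wrap DNA into nucleosomes, with H2A, H2B, H3 and H4 in the core and H1 on the linker. Replication-dependent genes stand in clusters, lack introns, are transcribed mainly in S phase and give mRNAs that end in a conserved stem-loop in place of a poly(A) tail. Variant genes are transcribed through the whole cell cycle, usually give polyadenylated mRNAs, and supply H3.3, H2A.Z, H2A.X and H1.0 to chromatin outside replication. In the wall of an adult artery most smooth muscle cells are not dividing. How the RNA was selected for sequencing is not given in the sources used here, so the share of stem-loop mRNAs that a library could capture is not known.

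Stem-loops are shown first because they mark which mRNAs carry the replication-dependent end. The motif, arms GGNNCT and AGNNCC that pair with each other around the loop TTTC, was searched on the transcript strand of GENCODE M21 (build GRCm38) and found in 45 of 141767 transcripts (0.0317%). Among the histone genes 32 of 62 replication-dependent members with a transcript model held it, and 0 of 12 variant members with a model did. Capitals mark the stem and loop, written in DNA letters with up to 5 flanking bases on each side.

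H1f2: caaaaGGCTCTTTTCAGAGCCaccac
H2ac18: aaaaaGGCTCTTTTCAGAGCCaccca
H2ac19: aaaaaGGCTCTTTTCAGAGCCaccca
H2ac24: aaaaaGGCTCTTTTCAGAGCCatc
H2ac6: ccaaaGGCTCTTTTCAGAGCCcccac
H3c14: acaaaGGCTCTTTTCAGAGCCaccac
H4c8: ccaaaGGCCCTTTTCAGGGCCgccca

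In 18 of the 32 members the model ends within 60 nt of the loop, and in 14 the annotated form runs on for more than 100 nt. H2ac24 ends 3 nt after the loop, H2ac18 and H2ac19 35 nt after it and H4c8 46 nt after it. By contrast the models of H1f2 and H2ac6 continue for 840 and 2010 nt. H2bc4, H2bc21 and H4c9 held no match in their models, and 13 of the 30 replication-dependent models without one are no longer than 420 nt.

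Promoter sequence is shown for H2ac6 and H2az1, a replication-dependent and a variant gene that were higher at 2 years, and for H1f0, the variant that was lower. Each is the 100 bases before the annotated start in RefSeq (GRCm38.p6), and capitals mark TATAAA or CCAAT on either strand (ATTGG is CCAAT on the other strand). In windows of this length TATAAA stood in 31.6% of 57 replication-dependent promoters, 9.09% of 11 variant promoters and 5.56% of all 32851. CCAAT stood in 75.4%, 72.7% and 18.9%, and H1f0 held neither.

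H2ac6: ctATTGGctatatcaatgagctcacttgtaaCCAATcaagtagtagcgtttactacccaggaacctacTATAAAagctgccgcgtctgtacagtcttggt
H2az1: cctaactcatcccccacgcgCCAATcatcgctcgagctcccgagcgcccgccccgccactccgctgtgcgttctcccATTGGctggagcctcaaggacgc
H1f0: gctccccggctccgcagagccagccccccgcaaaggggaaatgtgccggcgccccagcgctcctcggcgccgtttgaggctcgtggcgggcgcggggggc

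Library totals ranged from 16251986 to 33880690 counts, with 2 years replicate 3 the shallowest. Values are in CPM, counts per 1000000 of the library's TMM-scaled total. Smooth muscle markers were abundant in all libraries (summed 17700 to 36800 CPM), as the labelled tissue requires. A pair of libraries stood apart in ways that are not histone measures: 12 weeks replicate 3 had the highest heart muscle sum (1280 CPM against 87.4 to 293 in the other libraries) and 2 years replicate 3 the highest share of mitochondrial counts (10.3% against 4.14% to 7.33%). Histone calls that were lost or gained without either library are given with and without it. Ribosomal protein genes took 1.73% to 1.96% of the counts at 12 weeks and 3.6% to 5.42% at 2 years.

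Most replication-dependent genes were scarcely detected. Of the 80 members 22 passed the filter on low counts (14 replication-dependent and 8 variant) and were tested, 9 had 0 counts in all libraries and 49 had counts but were not tested. The untested members averaged at most 0.347 CPM and never exceeded 22 counts in a library. A total of 0 counts over the 202566557 counts of all libraries allows a level of up to 0.0148 CPM, counting error only. H3c3, an H3 gene named after its values were seen, was called higher where low counts were also tested, by edgeR without the filter (edgeR's adjusted p = 0.0347) and by DESeq2 (adjusted p = 0.025). It had 0, 0, 0 and 1 counts at 12 weeks and 3, 5, 12 and 0 counts at 2 years, so the 12 counts of 2 years replicate 3 are most of its total. The testis histone genes H2ac1, H2bc1 and H1f7 were among those with 0 counts. Other testis histone genes had a few counts: H1f6 had 1 and H1f9 had 10 over all libraries.

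Histone counts were concentrated in a few genes. Replication-dependent members summed to 144 ± 10.7 CPM at 12 weeks (SD, n = 4) and 191 ± 32.9 CPM at 2 years, and variant members to 806 ± 21.3 and 1050 ± 130 CPM. The 5 most abundant replication-dependent genes, H1f2, H2bc4, H2bc21, H2ac25 and H2ac18, held 85.5% to 88.5% of the replication-dependent counts at 12 weeks and 78.8% to 87.3% at 2 years. Replication-dependent genes held 14.6% to 16.3% of all histone counts at 12 weeks and 13.1% to 17.6% at 2 years, so the groups overlapped in that share. In contrast the share of all counts that fell on histone genes did not overlap, at 0.0928% to 0.0956% and 0.108% to 0.145%.

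By edgeR's quasi-likelihood test, adjusted over all 13978 genes tested, 6 of 14 replication-dependent genes were higher at 2 years and 0 were lower. Among all genes tested 25.8% were higher, 26.2% lower and 52% either, so the 42.9% of replication-dependent genes called higher stands above the share of all genes called higher and below the share called in either direction. These shares are not matched for transcript length, with which the share called higher moved (given below). Of the 8 variant genes 4 were higher and 1 was lower. The median log2 fold change (2 years over 12 weeks) was 0.40 over the 14 and 0.59 over the 8, beside -0.01 over all genes tested. The filter kept only the more abundant members, so these counts describe the tested members and not the 80. DESeq2 and limma voom also called 0 replication-dependent genes lower, and 0 were lower at an unadjusted p below 0.05 in edgeR.

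**Figure D1:**
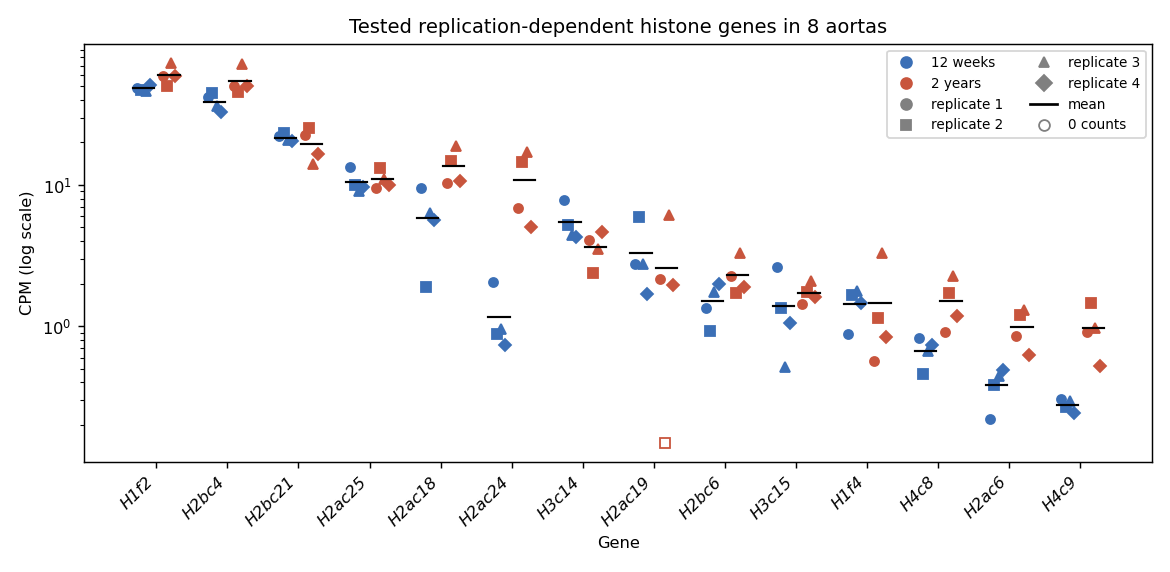
CPM (log scale) of the 14 tested replication-dependent histone genes in the 4 libraries of each age, ordered by mean level. Symbols mark the replicate number, black lines the mean, and the open symbol a library with 0 counts of H2ac19. For H2ac24, H2ac6, H4c9, H4c8, H2ac18 and H2bc4 every 2-year library lies above every 12-week library.

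H2ac24, an H2A gene of the Hist1 cluster that is nearly identical to H2ac23, changed most. Replicates 1 to 4 measured 2.05, 0.886, 0.962 and 0.730 CPM at 12 weeks and 6.90, 14.5, 17.0 and 5.00 CPM at 2 years, the order in which all such values are given. The groups did not overlap, and within the 2-year group replicates 2 and 3 were higher than replicates 1 and 4. The mean went from 1.16 ± 0.605 to 10.9 ± 5.82 CPM (SD, n = 4), and the log2 fold change was 3.23 (SE 0.46, edgeR's adjusted p = 0.000272) or 9.36-fold. It was called in each of 17 alternative fits, with values of 2.34 to 3.63. Of the 50-base words of its transcript 93.1% also occur in H2ac23. H2ac23 had 5 counts over all libraries, so adding the counts of both genes could hardly move the value (3.23, edgeR's adjusted p = 0.000274). The words of H2ac24 also occur in H2ac11 (72.3%), H2ac7 (62.1%) and H2ac6 (60.7%), which were not part of this sum.

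H4c9 and H4c8 are H4 genes of the same cluster and were low in all libraries. H4c9 measured 0.306, 0.270, 0.296 and 0.243 CPM at 12 weeks against 0.913, 1.45, 0.975 and 0.521 CPM at 2 years, with no overlap. The log2 fold change was 1.77 (SE 0.41, edgeR's adjusted p = 0.00425), 3.40-fold. H4c8 was at 0.830, 0.462, 0.666 and 0.730 CPM at 12 weeks and at 0.913, 1.71, 2.28 and 1.18 CPM at 2 years, also without overlap, although the lowest 2-year library lay close to the highest 12-week library. Its log2 fold change was 1.15 (SE 0.38, edgeR's adjusted p = 0.0243). The call for H4c8 was lost without 12 weeks replicate 2, 3 or 4 or 2 years replicate 2 or 3 (edgeR's adjusted p = 0.0508 to 0.0725), and its adjusted p ranged from 0.0165 to 0.903 over 18 alternatives.

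H2ac6, an H2A gene, and H2bc4, an H2B gene, neighbour each other and were both higher at 2 years. H2ac6 levels were 0.218, 0.385, 0.444 and 0.487 CPM at 12 weeks and 0.856, 1.19, 1.30 and 0.625 CPM at 2 years. No library of one age overlapped the other, and the log2 fold change was 1.34 (SE 0.40, edgeR's adjusted p = 0.0158), 2.52-fold. H2bc4, among the most abundant replication-dependent genes, measured 41.8, 44.6, 36.5 and 32.9 CPM at 12 weeks and 50.4, 45.2, 71.6 and 50.6 CPM at 2 years. In relative terms it changed least of the 6 called genes: 38.9 ± 5.25 to 54.5 ± 11.7 CPM (SD, n = 4), or 0.48 in log2 (SE 0.16, edgeR's adjusted p = 0.0272). The value rested partly on 2 years replicate 3, without which it was 0.32 (edgeR's adjusted p = 0.0569). Without 12 weeks replicate 3 it was 0.45 (edgeR's adjusted p = 0.075) and without 12 weeks replicate 4 it was 0.40 (edgeR's adjusted p = 0.0912), and over 18 alternatives the adjusted p ranged from 0.0111 to 0.192.

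H2ac18 and H2ac19 are neighbouring H2A genes of the Hist2 cluster whose reads cannot be separated with confidence: all 50-base words of H2ac19 and 89.2% of those of H2ac18 occur in the other gene. Transcripts of Gm20634, a GENCODE gene not analysed here, hold 100% and 89.4% of them, so neither the pair nor a sum that includes it is free of shared reads. H2ac18 measured 9.52, 1.89, 6.33 and 5.68 CPM at 12 weeks and 10.4, 14.8, 19 and 10.6 CPM at 2 years, and H2ac19 2.75, 5.97, 2.74 and 1.70 CPM against 2.17, 0, 6.18 and 1.94 CPM. The split between them moved from library to library, with H2ac19 holding 76% of the pair's counts in 12 weeks replicate 2 and 0% in 2 years replicate 2. On its own H2ac18 was called higher (log2 fold change 1.22, SE 0.40, edgeR's adjusted p = 0.027) and H2ac19 was not (-0.39, SE 0.90, edgeR's adjusted p = 0.738). The H2ac19 value was -1.24 without 2 years replicate 3, 0.01 without 2 years replicate 2 and 0.07 without 12 weeks replicate 2, none of them called. Added together, the pair measured 12.3, 7.86, 9.06 and 7.38 CPM at 12 weeks and 12.6, 14.8, 25.2 and 12.6 CPM at 2 years. On the sum the log2 fold change was 0.83 (SE 0.25, edgeR's adjusted p = 0.0159), 1.77-fold, with every 2-year library above every 12-week library by a narrow margin. H2ac18 on its own lost its call without 12 weeks replicate 3 or 4 or 2 years replicate 2 or 3 (edgeR's adjusted p = 0.0515 to 0.0674), within a range of 0.00393 to 0.129 over its alternatives.

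The other 8 tested replication-dependent genes did not pass the threshold. H1f2, the linker histone H1.2 and the most abundant replication-dependent gene in CPM, was at 48.5, 46.7, 46.3 and 51.5 CPM at 12 weeks and 59.1, 50.1, 73.1 and 58.9 CPM at 2 years. The highest 12-week library exceeded the lowest 2-year library (log2 fold change 0.32, SE 0.13, edgeR's adjusted p = 0.0601), and without 2 years replicate 2 the gene was called (0.38, edgeR's adjusted p = 0.0287, range over alternatives 0.0287 to 0.558). H2bc21 was at 22.1, 23.4, 20.7 and 20.4 CPM against 22.7, 25.4, 14 and 16.5 CPM. This H2B gene was the only tested replication-dependent gene whose lowest value lay in 2 years replicate 3. H2ac25, an H2A gene with no matched transcript model, was at 13.3, 9.97, 9.14 and 9.61 CPM and at 9.53, 13.3, 11.1 and 10.03 CPM, which overlapped (log2 fold change 0.06, SE 0.17, edgeR's adjusted p = 0.779).

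Neither tested H3 gene was called. H3c14 was at 7.86, 5.24, 4.44 and 4.26 CPM at 12 weeks and 4.08, 2.39, 3.51 and 4.62 CPM at 2 years, and its neighbour H3c15 at 2.62, 1.35, 0.518 and 1.05 CPM against 1.43, 1.75, 2.08 and 1.60 CPM. Both overlapped between the ages (log2 fold changes -0.57, SE 0.27, edgeR's adjusted p = 0.0942, and 0.30, SE 0.43, edgeR's adjusted p = 0.575). They share sequence with each other, with H3c13 and with Gm20634, which holds 100% of the 50-base words of H3c14, 63.5% of those of H3c15 and 79.7% of those of H3c13. The 3 histone genes added together averaged 6.86 ± 2.57 and 5.44 ± 0.813 CPM (log2 fold change -0.33, SE 0.25, edgeR's adjusted p = 0.285). H2bc6 and H1f4, an H2B gene and the linker histone H1.4, had log2 fold changes of 0.61 (SE 0.33, edgeR's adjusted p = 0.144) and -0.03 (SE 0.51, edgeR's adjusted p = 0.963). H2bc6 was at 1.35, 0.924, 1.74 and 1.99 CPM at 12 weeks and 2.28, 1.71, 3.32 and 1.91 CPM at 2 years. H1f4 was at 0.873, 1.66, 1.78 and 1.46 CPM against 0.571, 1.15, 3.32 and 0.833 CPM, so 2 years replicate 3 lay above all other libraries and 2 of the other 3 of its age lay below all of 12 weeks. Without that library the log2 fold change of H1f4 was -0.78 (edgeR's adjusted p = 0.109, range over alternatives 0.109 to 0.99).

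Counts were also summed over each histone type, which removes the choice among near-identical members but not reads shared with genes outside the type. Replication-dependent H2A counts averaged 21.3 ± 4.47 CPM at 12 weeks and 39.5 ± 12.8 CPM at 2 years, or 0.89 in log2 (SE 0.22, edgeR's adjusted p = 0.00666) that stayed called without any single library (0.68 to 1.04). H2ac24 (mean 1.16 to 10.9 CPM) and H2ac18 (5.85 to 13.7 CPM) had the largest rises within this sum. The length and GC offset was not run on the sums by type. H4 counts averaged 1.82 ± 0.420 and 3.78 ± 1.78 CPM (1.04, SE 0.35, edgeR's adjusted p = 0.0268). That call was lost without 12 weeks replicate 2 (0.96), 12 weeks replicate 3 (0.91), 2 years replicate 2 (0.96) or 2 years replicate 3 (0.72). H1, H2B and H3 sums did not pass the threshold, with log2 fold changes of 0.32 (SE 0.14, edgeR's adjusted p = 0.0693), 0.30 (SE 0.13, edgeR's adjusted p = 0.0684) and -0.11 (SE 0.25, edgeR's adjusted p = 0.721). The core histones are needed in equal amounts in a nucleosome, but the summed replication-dependent counts were far from equal: 63.6 CPM for H2B, 21.3 for H2A, 7.14 for H3 and 1.82 for H4 at 12 weeks, which are not corrected for length.

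**Figure D2:**
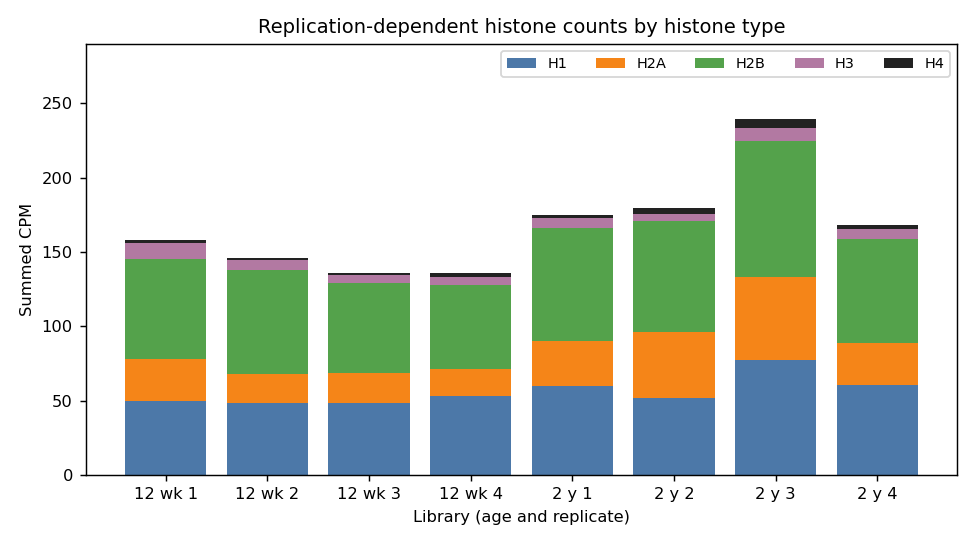
Summed CPM of replication-dependent genes in each library, stacked by histone type (H1, H2A, H2B, H3, H4), with the 4 libraries of 12 weeks on the left and the 4 of 2 years on the right. The 12-week bars end between 136 and 158 CPM and the 2-year bars between 168 and 239 CPM, with 2 years replicate 3 highest.

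Among the 2-year libraries, replicate 3 gave the highest value of all 8 libraries for 9 of the 14 tested replication-dependent genes and for 4 of the 8 variants. Its replication-dependent sum was 239 CPM, against 168 to 180 CPM in the other 2-year libraries and 136 to 158 CPM at 12 weeks. Outside the 5 most abundant genes the other 62 members summed to 50.7 CPM there, against 21.3 to 31.1 CPM in the other 2-year libraries and 15.6 to 22.9 CPM at 12 weeks. Without 2 years replicate 3 the number of replication-dependent genes called higher was 3, as it was without 12 weeks replicate 3, without 12 weeks replicate 4, and without replicate 3 of both ages. That library also had the highest mitochondrial share and the lowest total, and the part of either in these values was not tested.

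Variant histones were the more abundant class, led by the H3.3 genes. Per kilobase of transcript model, the order at 12 weeks was H3f3b (138 ± 9.31 CPM per kb, SD, n = 4), H3f3a (86.2 ± 1.69), H1f0 (61.8 ± 2.74), H2az1 (32.7 ± 5.44), H2az2 (17.0 ± 1.61), H2aj (6.88 ± 2.58), H2ax (6.71 ± 1.90) and H1f10 (1.96 ± 0.281). H2aj and H2ax did not differ beyond their spread. At 2 years H3f3b (156 ± 18.5) and H3f3a (142 ± 22.6) lay within each other's spread, and H2az1 (80.9 ± 11.8) stood above H1f0 (44.7 ± 5.30). Among replication-dependent genes with a model, the most abundant per kilobase of model at 12 weeks were H2bc4 (33.7 ± 4.54) and H1f2 (30.9 ± 1.51), near the level of H2az1. The H1f2 model runs 840 nt past its stem-loop, so an mRNA ending at the loop would give a higher value. H2ac25 has no model and is not ranked. H2ac24 went from 2.41 ± 1.26 to 22.6 ± 12.1 CPM per kb.

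**Figure D3:**
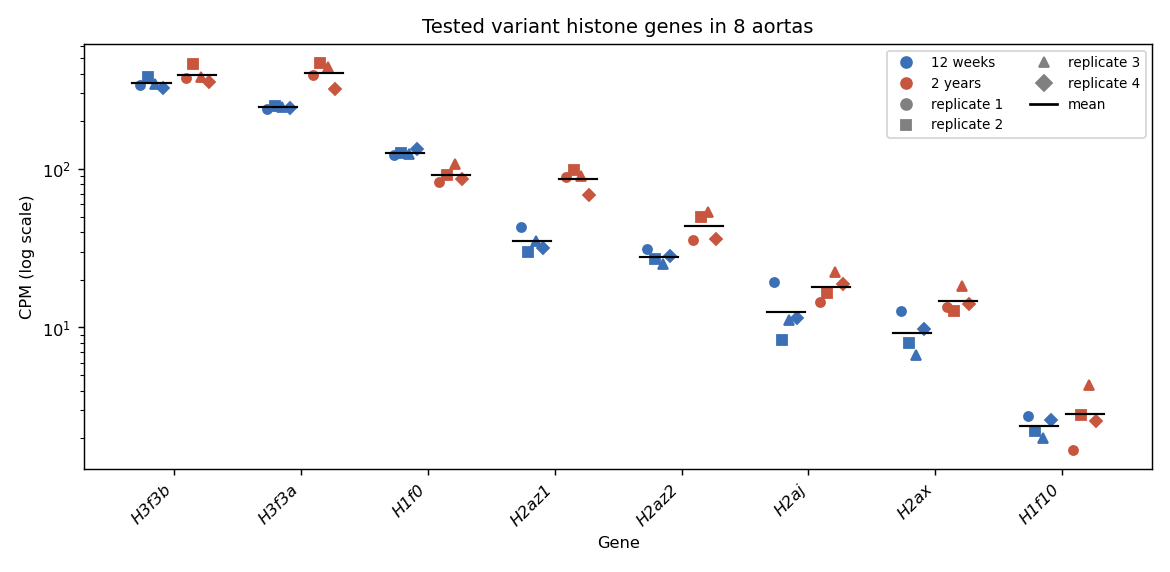
CPM (log scale) of the 8 tested variant histone genes in the 4 libraries of each age, ordered by mean level; symbols mark the replicate number and black lines the mean. H3f3a, H2az1 and H2az2 lie higher in every 2-year library than in any 12-week library, and H1f0 lies lower.

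H3f3a and H3f3b encode the same protein, H3.3, from separate genes. H3f3a was at 241, 251.3, 247 and 242 CPM at 12 weeks and 389, 465, 442 and 320 CPM at 2 years. It rose 1.65-fold without overlap (log2 fold change 0.72, SE 0.14, edgeR's adjusted p = 0.00142). H3f3b was at 339, 380, 342 and 325 CPM against 375, 460, 382 and 355 CPM, which overlapped (0.18, SE 0.13, edgeR's adjusted p = 0.264). H3f3a supplied 39.8% to 42.7% of the H3.3 counts at 12 weeks and 47.4% to 53.6% at 2 years. Replication-dependent H3 genes gave 0.889% to 1.81% of all H3 counts at 12 weeks and 0.527% to 1.03% at 2 years, so nearly all H3 counts fell on H3.3 genes at either age.

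H2A.Z, a variant placed around promoters, is encoded by H2az1 and H2az2. H2az1 measured 43.1, 30.1, 35.1 and 31.6 CPM at 12 weeks and 88.7, 98.5, 90.1 and 68.8 CPM at 2 years. Its mean of 35.0 ± 5.82 CPM rose to 86.5 ± 12.6 CPM (SD, n = 4), 2.47-fold or 1.31 in log2 (SE 0.16, edgeR's adjusted p = 5.98e-05). H2az2 measured 31.2, 26.9, 25 and 28.1 CPM against 35.5, 49.9, 53.9 and 35.9 CPM, also without overlap (0.65, SE 0.16, edgeR's adjusted p = 0.0053). H2az1 held 52.8% to 58.4% of the pair's counts at 12 weeks and 62.6% to 71.4% at 2 years. Of the 50-base words of H2az1 33.2% occur in transcripts of other genes, mainly Gm8203, so part of its count may belong to such copies; H2az2 shares none.

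H2ax encodes H2A.X, which is phosphorylated beside DNA breaks. Its values were 12.8, 7.93, 6.69 and 9.77 CPM at 12 weeks and 13.5, 12.7, 18.2 and 14 CPM at 2 years. The highest 12-week library lay above the lowest 2-year library, although the gene was called higher (log2 fold change 0.65, SE 0.21, edgeR's adjusted p = 0.0205). Without 12 weeks replicate 2 it was 0.58 (edgeR's adjusted p = 0.0624) and without 12 weeks replicate 3 it was 0.52 (edgeR's adjusted p = 0.062), in a range of 0.0047 to 0.114 over the alternatives. H2aj, which encodes H2A.J, was at 19.3, 8.28, 11.2 and 11.5 CPM and at 14.4, 16.5, 22.5 and 18.9 CPM. It did not pass the threshold with all libraries (0.52, SE 0.24, edgeR's adjusted p = 0.0899) and did so without 12 weeks replicate 1 (0.80, edgeR's adjusted p = 0.0068, range over alternatives 0.0068 to 0.394).

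H1f0 was the tested histone gene called lower. It encodes H1.0, the linker histone known to accumulate in cells that have left the cell cycle and differentiated. Its level was 122, 127, 124 and 135 CPM at 12 weeks and 82.7, 91.3, 107 and 86.2 CPM at 2 years. From a mean of 127 ± 5.63 CPM it fell to 91.9 ± 10.9 CPM (SD, n = 4), 1.38-fold, without overlap (log2 fold change -0.46, SE 0.12, edgeR's adjusted p = 0.00748). Against this, H1f2 took 26.9% to 28.5% of the counts of the H1f0 and H1f2 pair at 12 weeks and 35.4% to 41.7% at 2 years. H1f10, the linker histone H1.10, was at 2.75, 2.23, 2.00 and 2.60 CPM and at 1.68, 2.81, 4.36 and 2.57 CPM, and was not called (0.24, SE 0.31, edgeR's adjusted p = 0.534). In this bulk tissue fewer cells of a type and less RNA per cell cannot be told apart.

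Values for groups that do not overlap were counted as well. Of the 14 replication-dependent genes 6 were higher in every 2-year library than in any 12-week library and 0 were lower throughout. Among the 8 variants 3 were higher and 1 was lower. Over all genes tested 49.6% did not overlap, 24.3% with higher and 25.3% with lower values at 2 years.

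Fold changes in these libraries moved with transcript length, and the models of the tested histone genes differ in it. Those of the tested variants run from 1069 nt (H2az1) to 2841 nt (H3f3a). Among tested genes with a model of up to 600 nt (111 genes) the median log2 fold change was 1.10 and 75.7% were called higher. The share called higher was 65.3% over 600 and up to 1000 nt, 49.2% up to 1500 nt, 38.4% up to 2000 nt and 29.1% up to 3000 nt. The 7439 genes over 3000 nt had a median of -0.24, with 14.7% called higher and 37.2% lower. Of the replication-dependent genes with a model of 1000 nt or less 5 were tested and 4 were called higher, and of those over 1000 nt 8 were tested and 2 were called. Summed, the shorter class averaged 12.3 ± 3.04 and 32.6 ± 14.7 CPM and the longer class 121 ± 6.92 and 146 ± 19.9 CPM.

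With an offset that removes each library's trend on length and GC share, the number of replication-dependent genes called higher was 2 and the number called lower was 1. H2ac24 (2.37, edgeR's adjusted p = 0.000177) and H2ac6 (1.06, edgeR's adjusted p = 0.0399) were the ones called higher, and H3c14 (-1, edgeR's adjusted p = 0.0109, range over alternatives 0.0109 to 0.276) the one called lower. H2ac6 lost its call with the offset and the replicate block (edgeR's adjusted p = 0.0739). The offset takes the annotated length, for H2ac6 2482 nt with 2010 nt past the loop, and the mRNA ends in these libraries were not examined. H4c9 (0.84, edgeR's adjusted p = 0.0943), H2ac18 (0.53, edgeR's adjusted p = 0.129) and H4c8 (0.07, edgeR's adjusted p = 0.854) were no longer called, and H2bc4 changed sign (-0.26, edgeR's adjusted p = 0.151). Among variants H3f3a (0.54, edgeR's adjusted p = 0.00471), H2az1 (0.52, edgeR's adjusted p = 0.00618), H2ax (0.40, edgeR's adjusted p = 0.0384) and H1f0 (-0.79, edgeR's adjusted p = 9.43e-05) kept their calls, and H2az2 did not (0.12, edgeR's adjusted p = 0.493). Whether the length trend is technical was not tested. H3f3a, H2az1 and H1f0 were called in each of 18 alternatives, with adjusted p up to 0.0191, 0.0118 and 0.029.

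**Figure D4:**
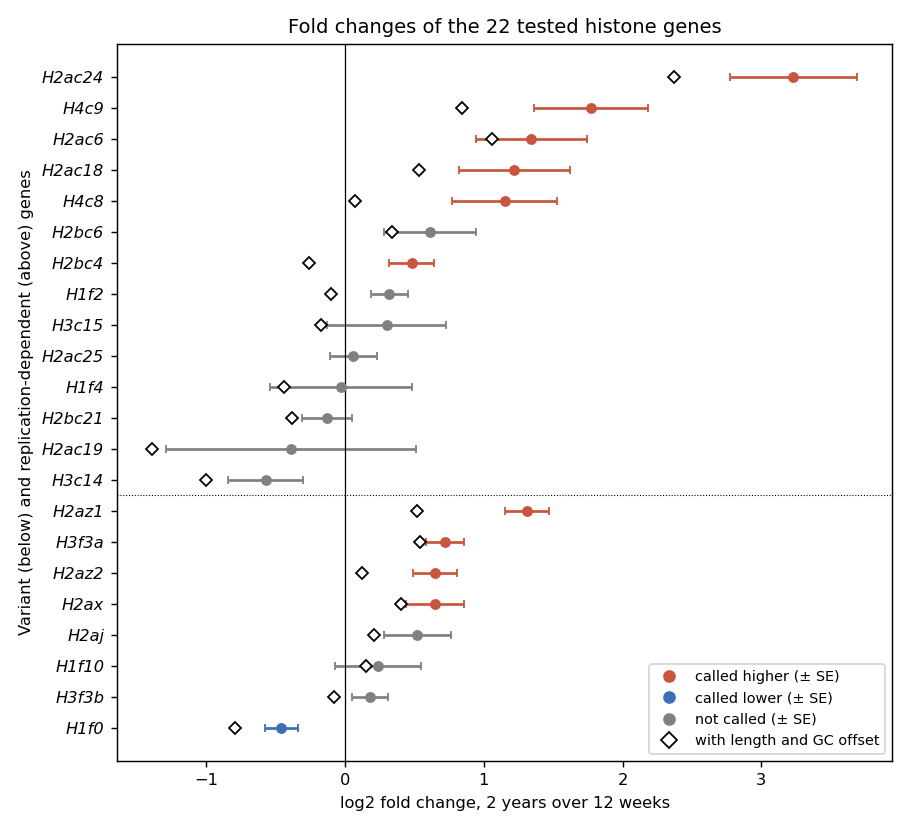
Log2 fold change (2 years over 12 weeks) of the 22 tested histone genes, replication-dependent above the dotted line and variant below it; points are edgeR estimates with all 8 libraries, bars their SE, colours the call, and open diamonds the estimate with a length and GC offset. Diamonds lie to the left of the points for nearly all genes, and H2bc4 moves from 0.48 to -0.26.

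Of 30 tested genes of DNA replication and S phase 19 were higher at 2 years and 1 was lower, beside 25.8% and 26.2% of all genes tested. The median log2 fold change was 0.89 beside -0.01 over all genes. Mcm5 and Mcm3, subunits of the replicative helicase, went from 5.39 ± 0.730 to 15.4 ± 2.32 CPM and from 10.5 ± 0.805 to 24 ± 4.14 CPM (SD, n = 4; edgeR's adjusted p = 3.05e-05 and 9.23e-05). Pcna, the sliding clamp, went from 39.4 ± 2.13 to 68.1 ± 8.99 CPM (edgeR's adjusted p = 0.00039). Rfc5, of the clamp loader, went from 5.13 ± 0.574 to 10.1 ± 1.73 CPM (edgeR's adjusted p = 0.00078). The gene called lower, named after its value was seen, was Cdk2 (log2 fold change -0.42, SE 0.15, edgeR's adjusted p = 0.0361). The number called lower in the list was 0 without 12 weeks replicate 1, 3 or 4 or 2 years replicate 1 or 4. It was also 0 with the replicate block, without scaling factors and without replicate 3 of both ages, and 2 with the length and GC offset.

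Order across the 2-year libraries was not the same for the replication list and the histone genes. The list summed to 451, 454, 356 and 420 CPM in 2 years replicates 1 to 4, lowest in replicate 3, where the less abundant replication-dependent genes summed highest. At 12 weeks it summed to 278 to 313 CPM. With 4 libraries per age no correlation across libraries was computed within an age.

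**Figure D5:**
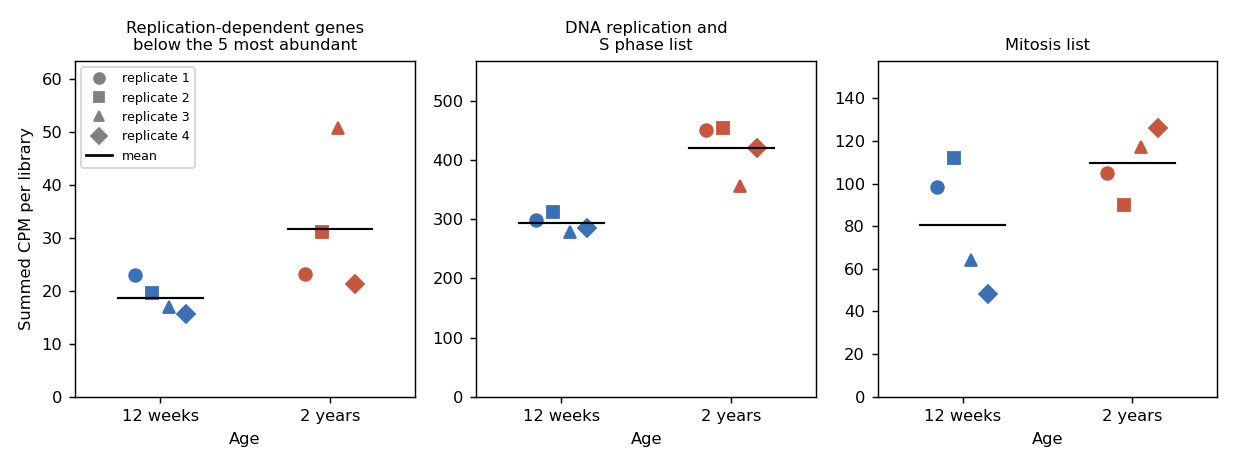
Summed CPM per library of the 62 replication-dependent histone genes below the 5 most abundant (left), the DNA replication and S phase list (middle) and the mitosis list (right), with black lines for the mean at each age and symbols for the replicate number. In 2 years replicate 3 the histone sum is the highest of all libraries at 50.7 CPM and the replication list the lowest of its age at 356 CPM.

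In the mitosis list 11 of 20 genes were higher and 1 was lower, beside 25.8% and 26.2% of all genes tested, with a median of 0.81. Aurkb, a kinase that phosphorylates H3 in mitosis, went from 1.05 ± 0.549 to 4.65 ± 0.556 CPM (SD, n = 4; log2 fold change 2.14, edgeR's adjusted p = 0.000562). Cdk1, Ccnb1 and Ube2c, which drive mitotic entry and exit, had log2 fold changes of 1.48, 1.41 and 1.45 (edgeR's adjusted p = 0.000692, 0.00174 and 0.00288). Mki67, a proliferation marker named after its value was seen, was lower: 22.5, 29.1, 14.7 and 11.6 CPM at 12 weeks and 4.79, 2.52, 8.26 and 13.6 CPM at 2 years. The highest 2-year library overlapped the 12-week range (log2 fold change -1.42, SE 0.49, edgeR's adjusted p = 0.035). That call was lost without 12 weeks replicate 1 (-1.35), 12 weeks replicate 2 (-1.16), 2 years replicate 1 (-1.26) or 2 years replicate 3 (-1.49). The number called lower in the list was also 0 with the length and GC offset, with and without the replicate block. It was 0 as well with the block alone, without the low-count filter and without replicate 3 of both ages. The summed list overlapped between the ages, at 48.3 to 112 and 90.1 to 126 CPM.

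Of 20 tested factors that make and destroy stem-loop mRNAs 3 were higher and 9 lower, beside 25.8% and 26.2% of all genes tested, with a median of -0.33. The most clearly lower were Srrt, a partner of the nuclear cap-binding complex (98.2 ± 14.1 to 46.3 ± 7.13 CPM, SD, n = 4, edgeR's adjusted p = 0.00016), and Upf1, a helicase needed for histone mRNA decay (83.8 ± 9.02 to 36.0 ± 12.2 CPM, edgeR's adjusted p = 0.00098). Tut4, which adds uridines to histone mRNA, and Sympk, the scaffold of the cleavage complex, fell by 1.09 and 0.84 on the log2 scale (edgeR's adjusted p = 0.00147 and 0.00178). Further genes were chosen after their values were seen. Slbp, which binds the stem-loop itself, was at 18.1, 19.6, 20.1 and 20.6 CPM and at 29.1, 26.9, 21.7 and 26.3 CPM. Slbp was called higher (log2 fold change 0.41, SE 0.13, edgeR's adjusted p = 0.0176), lost the call without 2 years replicate 1 (0.35, edgeR's adjusted p = 0.0591), and was at -0.02 with the length and GC offset. Npat, the coactivator of replication-dependent histone transcription, and Lsm11, of the U7 particle that cuts the mRNA, were lower (-0.78 and -0.71, edgeR's adjusted p = 0.00735 and 0.00429), and Eri1, a nuclease acting at the stem-loop, was higher (0.68, edgeR's adjusted p = 0.00361). Without 2 years replicate 1 or 12 weeks replicate 4 the number called higher in the list was 1 or 2.

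Of 30 tested histone chaperones 8 were higher and 9 lower, shares near those of all genes tested (25.8% and 26.2%), with a median of 0.12. Asf1b, which hands H3 and H4 to replicating chromatin, went from 0.80 ± 0.392 to 4.51 ± 0.608 CPM (SD, n = 4; log2 fold change 2.49, SE 0.37, edgeR's adjusted p = 0.000254). Lower genes included Hjurp, the chaperone of the centromeric H3 (-1.30, edgeR's adjusted p = 3.37e-05), Srcap, the motor that exchanges H2A.Z into nucleosomes (-1.66, edgeR's adjusted p = 7.49e-05), and Cabin1, of the complex that deposits H3.3 (-1, edgeR's adjusted p = 0.000143). Srcap was at 172, 177, 164 and 180 CPM at 12 weeks and at 52.5, 36.4, 50.5 and 80.0 CPM at 2 years, while the H2A.Z genes were higher. Without 2 years replicate 2 the number of chaperones called higher was 5, and with the length and GC offset 4 were higher and 7 lower, with a median of -0.01.

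Histones and nucleosome proteins that the naming patterns do not take were also followed, together with H1f10. Of 8 tested 3 were higher and 2 lower, beside 25.8% and 26.2% of all genes tested. Macroh2a1, encoding macroH2A1, went from 53.4 ± 3.13 to 71.8 ± 5.57 CPM (SD, n = 4; log2 fold change 0.43, edgeR's adjusted p = 0.00799). Macroh2a2, named after its value was seen, went the other way, from 18.3 ± 1.73 to 12.6 ± 2.33 CPM (-0.54, edgeR's adjusted p = 0.0146). Cenpa, the centromeric H3, went from 2.61 ± 1.12 to 5.55 ± 1.27 CPM (1.09, edgeR's adjusted p = 0.00927). The nucleosome-binding proteins Hmgn2 and Hmgn3 had log2 fold changes of 0.64 and -0.47 (edgeR's adjusted p = 0.00368 and 0.0116). With the length and GC offset none of the 8 was called higher and 2 were called lower.

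The mixture of cell types differed between the ages by their markers, for which the shares over all genes tested are 25.8% higher and 26.2% lower. All 10 tested macrophage markers were higher at 2 years (summed 673 to 944 CPM at 12 weeks and 2670 to 3900 CPM at 2 years), as were all 10 of B and plasma cells (111 to 141 and 449 to 1480 CPM), all 9 tested of T cells (6.69 to 17.6 and 54.4 to 93.0 CPM, with Trac at 0 counts in all libraries) and all 7 tested of red blood cells (443 to 726 and 1780 to 7960 CPM). Smooth muscle markers were lower for 7 of 10 and higher for 0 (30900 to 36800 and 17700 to 26500 CPM), fibroblast markers lower for 3 of 8 (6950 to 7830 and 3730 to 8170 CPM), and heart muscle markers lower for 4 of 7 (230 to 1280 and 87.4 to 174 CPM). Without 2 years replicate 3 the fibroblast markers were lower for 5 of 8 (median log2 fold change -0.76 in place of -0.37). The median of the heart muscle markers was -3.86, and -1.76 without 12 weeks replicate 3, where 3 were lower; without 2 years replicate 1, 2, 3 or 4 in turn 2 were lower. Endothelial markers were called for 0 of 8 in either direction (360 to 769 and 414 to 552 CPM), while 3 were lower without 12 weeks replicate 1, 1 was lower without 2 years replicate 4 and 1 was higher without 12 weeks replicate 3. Fat cell markers were called higher for 1 of 8 (381 to 1030 and 435 to 1440 CPM), for 4 without 12 weeks replicate 3 (median 1.41 in place of 0.52) and for 0 without any 1 of 12 weeks replicates 1, 2 and 4 and 2 years replicates 1, 2 and 3. Markers of nerve and glia were higher for 2 and lower for 1 of 8 (671 to 764 and 298 to 717 CPM), with 3 lower without 2 years replicate 3 and 2 lower without 12 weeks replicate 2 or 2 years replicate 2 or 4. Macrophage and fibroblast sums in 2 years replicate 3, 3900 and 8170 CPM, were the highest of all libraries. The part of these cells in the histone values was not tested. For germ cells, which express testis histones, 0 of 6 markers were tested, 3 had 0 counts in all libraries, and the sum was at most 0.64 CPM.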

How the data were processed

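Each library's table gives raw counts per gene symbol, deposited by the authors, per the labels and the file headers. The submitters' processing notes name the build GRCm39. Aligner, counter, annotation, strand setting, treatment of multi-mapping reads and RNA selection: not given in the sources used here. Per the labels' protocols, total RNA came from a column kit and was read on a NovaSeq.

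Of 25526 genes 8096 were never counted, and the filterByExpr function of edgeR kept 13978. These were tested on all 8 libraries with edgeR's quasi-likelihood F test (TMM scaling, robust, age as the only term), Benjamini-Hochberg adjusted over all genes tested, with a threshold of 0.05. The SE is the fold change over the root of F. Library totals were 23622803, 27417541, 26271758 and 24448238 counts in 12 weeks replicates 1 to 4 and 33880690, 22213413, 16251986 and 28460128 in 2 years replicates 1 to 4. Pairs within an age differed by 23.5 to 150 times the variance of counting (chi-square over its degrees of freedom), and none was treated as a duplicate. Same-numbered libraries of the 2 ages were not paired by their deviations (r from -0.308 to 0.0511).

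Members and gene lists were chosen with earlier results of these data known. Members with values per library are the tested variants, the 12 replication-dependent genes with the highest mean CPM and the 5 called in each direction with the smallest p. From each list up to 4 called genes with the smallest p are named, other list genes only where said. A list of 20 short non-coding RNAs without a poly(A) tail matched 0 symbols.

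By symbol or gene identifier 74 of 80 members matched RefSeq (GRCm38.p6) and GENCODE M21 (GRCm38). Those builds differ from that of the counts, so no coordinates are given. Length and GC share, from the longest protein-coding transcript, were found for 13835 of the tested genes (99%) and entered the offset as natural splines with 4 degrees of freedom. Shared sequence is the share of 50-base words of a member's longest transcript found in other genes' transcripts. Alternatives were DESeq2 size factors, no scaling, no filter, DESeq2, limma voom, a replicate block, the offset with and without the block, leaving out each library and replicate 3 of both ages, counts summed by histone type and, added after seeing the data, near-identical neighbours summed. The software was edgeR 4.0.16, DESeq2 1.42.0 and limma 3.58.1 in R 4.3.3.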

Additional observations from a re-analysis of the deposited data

How the results depend on the processing

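The number of replication-dependent genes called higher was 6 with all libraries and 6 or 7 with other scaling, without the filter, with DESeq2, with limma voom and with near-identical neighbours summed. It was 3 to 6 when 1 library was left out (3 without 12 weeks replicate 3, 12 weeks replicate 4 or 2 years replicate 3), 3 without replicate 3 of both ages, 2 with the length and GC offset and 1 with the offset and the block. The number called lower was 0 with all libraries, 1 with the offset and 2 with the offset and the block. For variants the number called higher was 4, 3 to 5 when 1 library was left out and 2 with the offset and the block, and the number called lower was 1 in each alternative. The replicate block alone gave 4 replication-dependent genes and 4 variants higher, without H4c8 (1.11, edgeR's adjusted p = 0.064) and H2bc4 (0.47, edgeR's adjusted p = 0.0564). The same-numbered libraries share only a number. Signs turned with the length and GC offset, and with the offset and the block, for the called genes H2bc4 (-0.26 and -0.27), Slbp (-0.02 and -0.03) and Hmgn2 (-0.05 and -0.06). Among histone genes not called with all libraries, the sign also turned with the offset for H1f2 (-0.1), H3f3b (-0.08) and H3c15 (-0.17). The causes of these changes were not tested. The summed H1 and H2B counts were called without scaling factors (0.34 and 0.33), and summed H1 without 2 years replicate 2 (0.38). The sum of replication-dependent H4 was 0.96 with the replicate block (edgeR's adjusted p = 0.0776). Depth limits the 49 untested members with counts, none above 22 counts in a library. With no filter 1 of these 49 was called, and with DESeq2 1 of the 29 it gave an adjusted p, in both cases H3c3 higher. Reads shared among near-identical copies, and the unknown capture of mRNAs without a poly(A) tail, limit every level of a replication-dependent gene.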
